A study of Rattus norvegicus with 8 samples.

Results

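Transcription factors that mark regions of the hypothalamus were followed after retinoic acid (RA) was injected into the third ventricle of rats. The 9 genes were *Foxa2*, *Foxa1*, *Nkx6-1*, *Nkx2-1*, *Lmx1b*, *Barhl1*, *Otp*, *Sim1* and *Isl1*, and 8 of them had a named probe among the 15159 genes named on the arrays. No probe could be matched to *Lmx1b*. *Foxa2* and *Nkx6-1* were chosen by their own ratios, which were below 0 on every array, so these ratios are given as a description with no test. The other 7 genes were taken as regional comparison, and 6 of them were measured. With normexp background correction the 2 chosen genes averaged 72.3% (*Foxa2*) and 75.5% (*Nkx6-1*) of the vehicle level, and the size depended on that correction. The comparison genes were tested in limma at an unadjusted p under 0.01, and none of the 6 passed, beside 4.31% of all named genes. At that share, no call among 6 genes is not a contrast with the 2 chosen genes. *Nkx2-1*, *Barhl1* and *Isl1* were lower after RA on the same pair of arrays (5 and 8), on which neither chosen gene had its lowest ratio.

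Male F344 rats (F344N in the labels) were held in short days (SD) and killed the day after the injection, and their age is not given in the sources used here. There were 4 RA rats and 4 vehicle rats. The labels give all-trans RA at 1e-05 M and saline as vehicle, whereas the methods give a higher concentration for this experiment and name DMSO in saline as the vehicle. RNA of frozen hypothalamic blocks that included the arcuate nucleus was compared on 8 two-colour Agilent arrays of 1 slide, each with RA in a dye and vehicle in the other. RA was in Cy5 on arrays 1, 3, 6 and 8 and in Cy3 on arrays 2, 4, 5 and 7, and which arrays carry the same RNA is not stated. The 8 arrays come from 4 rats a group with dye-swap, so they are not 8 independent comparisons. In their deviations from the mean of their dye order, arrays 1 and 2 (correlation across probes 0.319), 3 and 4 (0.456), 6 and 7 (0.596) and 5 and 8 (0.526) were most alike, which is a hint from the data and not from the labels. Values below are log2 ratios of RA over vehicle unless called levels, so that -1 stands for a halving.

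Regional transcription factors bind DNA and set the identity of neurons along the developing neural tube, and many of them stay on in the mature neurons of that region. *Foxa1* and *Foxa2* encode forkhead proteins of the ventral midline that are needed for midbrain dopamine neurons, and *Nkx6-1* encodes a homeodomain repressor that Sonic hedgehog induces in ventral progenitors. *Nkx2-1* marks the tuberal and mammillary hypothalamus, *Barhl1* and *Lmx1b* the mammillary and subthalamic side, *Otp* and *Sim1* the neurosecretory nuclei, and *Isl1* arcuate neurons, among them those that make *Pomc*. RA acts through nuclear receptors and is itself a patterning signal of the embryonic neural tube.

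The promoters of the 2 chosen genes are shown because their ratios lay below 0 together. They were taken from RefSeq (GRCr8), which held a promoter for 7 of the 9 genes, and cover 250 bases before to 50 after the start of the gene, read 5′ to 3′ on the strand of the gene. The capitals mark TGTTTGT, a form of the forkhead core.

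Foxa2, chr3:155927459-155927758, strand -: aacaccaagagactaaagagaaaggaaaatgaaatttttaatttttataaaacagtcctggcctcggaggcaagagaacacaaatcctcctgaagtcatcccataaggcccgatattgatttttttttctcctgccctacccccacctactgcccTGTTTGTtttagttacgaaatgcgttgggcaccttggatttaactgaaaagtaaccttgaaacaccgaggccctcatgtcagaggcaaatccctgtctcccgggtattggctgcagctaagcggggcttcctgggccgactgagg

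Nkx6-1, chr14:8273988-8274287, strand +: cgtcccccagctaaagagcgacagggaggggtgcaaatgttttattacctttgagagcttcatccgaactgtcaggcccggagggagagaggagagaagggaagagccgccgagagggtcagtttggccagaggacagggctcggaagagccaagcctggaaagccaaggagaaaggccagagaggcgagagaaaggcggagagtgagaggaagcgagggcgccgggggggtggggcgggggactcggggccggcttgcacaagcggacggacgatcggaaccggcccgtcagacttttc

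The *Foxa2* window held 1 such match, which began at position -95 from the start, and the *Nkx6-1* window held none. TGTTTGT occurred in 6.42% of the 33469 promoters of the table, with both strands searched. The other forkhead core TGTTTAC, the nuclear receptor half-site AGGTCA and the Nkx2 core CAAGTG were found in none of the 7 promoters, and in 3.78%, 16.2% and 14.1% of all promoters. The GC content was 46.7% in the *Foxa2* window and 62.7% in that of *Nkx6-1*, against a median of 51.7% over all promoters. The motifs were chosen after the sequences had been seen, and a missing match says only that these letters are not in this window.

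On the arrays with RA in Cy5, the *Foxa2* ratio was -0.94 on array 1, -0.30 on array 3, -0.50 on array 6 and -0.16 on array 8. With RA in Cy3 it was -0.98 on array 2, -0.06 on array 4, -0.24 on array 5 and -0.55 on array 7. Arrays 1 and 2 were thus the lowest, arrays 6 and 7 came next, and array 4 lay just below 0. The mean was -0.47 with an SD of 0.35 (n = 8 arrays of 4 rats a group), and it was almost the same with RA in Cy5 (-0.48) as with RA in Cy3 (-0.46). *Foxa2* mRNA was dim on the array. Its level in the RA channel ranged from 6.50 to 7.66 on the log2 intensity scale (median 6.76), and the vehicle channel ranged from 6.75 to 7.96 (median 7.43). The 2 ranges overlapped, although vehicle was higher within each array. The vehicle channel was well above background on all 8 arrays, but the RA channel only on 5, the exceptions being arrays 2, 5 and 7, on which RA was in Cy3. On those 3 arrays the size of the ratio is limited by the background. It depended on the background on other arrays too, since plain background subtraction gave -1.96 on array 1 and -1.17 on array 6, but -0.07 on array 4.

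The *Foxa2* probe was printed as 10 spots, which gives an error within each array. The SD over spots was between 0.101 on array 6 and 0.268 on array 5. Every spot used was below 0 on arrays 1, 2, 6 and 7, with the highest spot at -0.65 on array 1 and -0.68 on array 2. On arrays 3, 4, 5 and 8 the highest spot lay above 0, at 0.02, 0.11, 0.20 and 0.0012. The ratios of arrays 4 and 5 were smaller than the SD of their own spots.

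The *Nkx6-1* ratio with RA in Cy5 was -0.71 on array 1, -0.18 on array 3, -0.35 on array 6 and -0.44 on array 8. With RA in Cy3 it was -0.55 on array 2, -0.24 on arrays 4 and 5, and -0.54 on array 7. These ratios spread over a narrower range than those of *Foxa2*, with array 1 lowest and array 3 nearest to 0. The mean was -0.41 with an SD of 0.18 (n = 8 arrays of 4 rats a group), with -0.42 for RA in Cy5 and -0.39 for RA in Cy3. The probe was well above background in both channels on all 8 arrays. Its log2 level ranged from 6.78 to 7.90 with RA (median 7.25) and from 7.01 to 8.08 with vehicle (median 7.77), so that these ranges overlapped as well. Both of its 2 spots were below 0 on each array.

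A ratio below 0 on all 8 arrays was found for 273 of 15156 named genes (1.8%). Since both genes were chosen for it, nothing is read from that share. On both arrays 1 and 2, 27 genes (0.178%) had a ratio below -0.5, *Foxa2* and *Nkx6-1* among them. These are the arrays on which both chosen genes were lowest, so this share and later counts at this limit are only descriptions. Of both genes the ratio nearest to the limit of 0 was that of *Foxa2* with -0.06 on array 4, and no comparison gene was below 0 on more than 5 arrays.

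**Figure D1:**
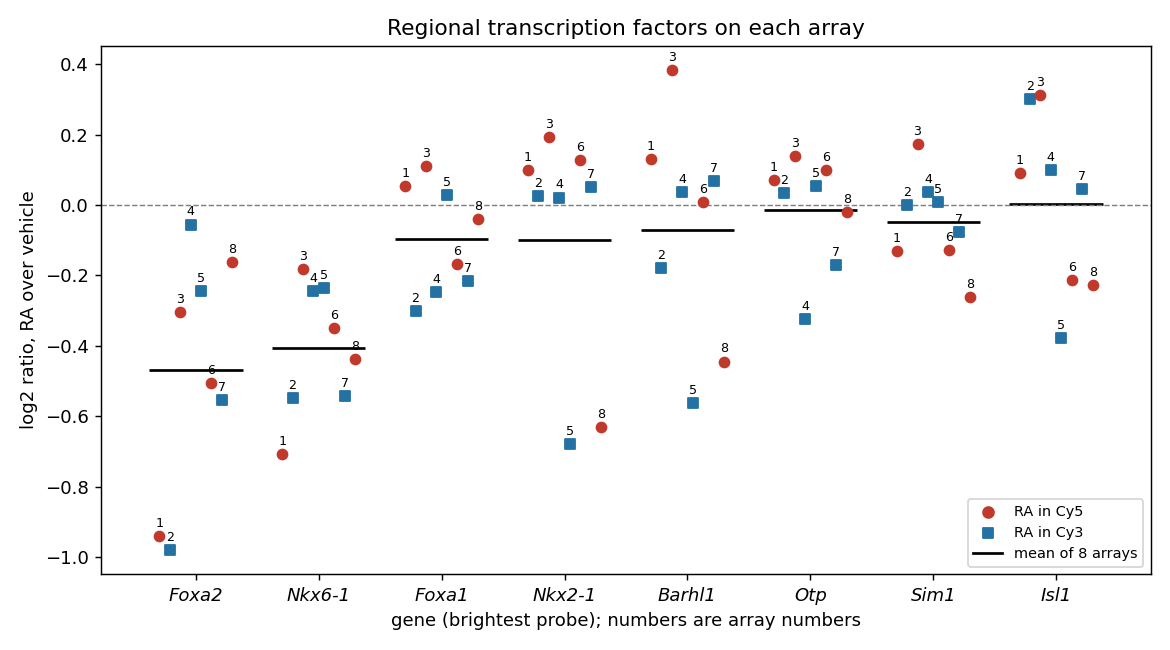
Log2 ratio of RA over vehicle (vertical axis) for the brightest probe of each of the 8 measured genes (horizontal axis), with 1 point per array, its array number, and a line at the mean of 8 arrays; circles have RA in Cy5 and squares RA in Cy3. All points of *Foxa2* and *Nkx6-1* lie below 0, and arrays 5 and 8 stand below the others for *Nkx2-1* and *Barhl1*.

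The comparison genes ask whether other regional factors differed as well. With limma and the p value limit named in the methods (0.01, unadjusted), none of the 6 was called, while 988 of 30367 probes (3.25%) and 654 of 15159 named genes (4.31%) were. Of these genes 120 (0.792%) were lower and 534 (3.52%) higher after RA. After Benjamini-Hochberg adjustment no probe (0%) passed 0.05 in limma, the lowest adjusted p being 0.222, although 3292 probes had an unadjusted p under 0.05. The log2 fold changes of the 6 genes ran from -0.10 to 0.0038 with a median of -0.06, beside a median of -0.0047 over all named genes.

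*Foxa1*, the close relative of *Foxa2*, had a log2 fold change of -0.10 (SE 0.05, unadjusted p = 0.118, adjusted p = 0.596 in limma). Its ratio was 0.05, 0.11, -0.17 and -0.04 on arrays 1, 3, 6 and 8 with RA in Cy5, and -0.30, -0.25, 0.03 and -0.22 on arrays 2, 4, 5 and 7 with RA in Cy3. Its mean was -0.0103 in the first dye order and -0.18 in the second. The probe was well above background in the RA channel on 4 arrays and in the vehicle channel on 5, fewer than for *Foxa2*. A second *Foxa1* probe was above background in neither channel on any array.

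The *Nkx2-1* probe had log2 levels of 8.19 to 9.95 with RA and 8.87 to 9.96 with vehicle, and was well above background throughout. Its ratio with RA in Cy5 was 0.10 on array 1, 0.19 on array 3, 0.13 on array 6 and -0.63 on array 8. With RA in Cy3 it was 0.02 on arrays 2 and 4, -0.68 on array 5 and 0.05 on array 7. A single array of each dye order was therefore low, and the other 6 lay between 0.02 and 0.19. The log2 fold change was -0.10 (SE 0.13, unadjusted p = 0.461, adjusted p = 0.857 in limma). Without arrays 5 and 8 it was 0.09. These were the only arrays below 0, so the mean without them had to lie above 0, and nothing is read from it. The 10 spots of the probe had an SD of 0.236 on array 5 and 0.0549 on array 8, and their highest spots were -0.39 and -0.53. A second, dimmer *Nkx2-1* probe gave -0.55 on array 5 but -0.08 on array 8, so the probes disagreed there.

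*Barhl1* had its lowest ratios on the same arrays, -0.56 on array 5 and -0.44 on array 8. The other ratios were 0.13 on array 1, -0.18 on array 2, 0.38 on array 3, 0.04 on array 4, 0.01 on array 6 and 0.07 on array 7. Its log2 fold change was -0.07 (SE 0.11, unadjusted p = 0.537, adjusted p = 0.889 in limma), and 0.08 without arrays 5 and 8. *Barhl1* was lowest on these arrays, so its mean had to rise without them. Each channel was well above background on 6 arrays. For RA the exceptions were arrays 5 and 7, so the size of the ratio on array 5 is limited by the background.

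For *Isl1* the ratio was -0.38 on array 5 and -0.23 on array 8, with -0.21 on array 6. It was 0.09, 0.30, 0.31 and 0.10 on arrays 1 to 4 and 0.04 on array 7. The 4 arrays of the first row of the slide were thus above 0, with a mean of 0.20, and the second row had a mean of -0.19. The log2 fold change over all arrays was 0.0038 (SE 0.09, unadjusted p = 0.969, adjusted p = 0.995 in limma), and its sign depended on the processing. *Isl1* was well above background in both channels on all arrays.

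The 2 neurosecretory factors showed no such arrays. *Sim1*, well above background throughout, had ratios from -0.26 on array 8 to 0.17 on array 3 and a log2 fold change of -0.05 (SE 0.05, unadjusted p = 0.414, adjusted p = 0.836 in limma). Its second probe, which was dim, gave 0.02 (adjusted p = 0.958 in limma). *Otp* lay between -0.32 on array 4 and 0.14 on array 3, with a log2 fold change of -0.01 (SE 0.05, unadjusted p = 0.808, adjusted p = 0.963 in limma). The *Otp* probe was well above background on no array in the RA channel and on 1 in the vehicle channel, so a change of *Otp* was not detectable at this signal.

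**Figure D2:**
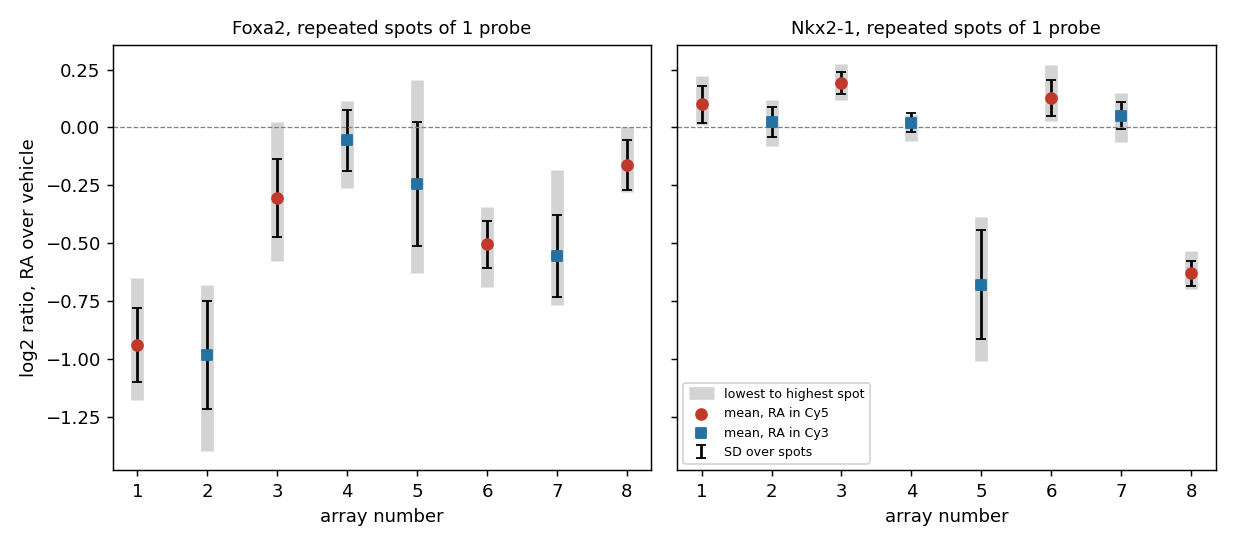
Mean log2 ratio over the repeated spots of the *Foxa2* probe (left) and the *Nkx2-1* probe (right) on each array (horizontal axis), with the SD over spots as error bars and a grey band from the lowest to the highest spot. For *Nkx2-1* the bands of arrays 5 and 8 lie wholly below those of the other 6 arrays.

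Other genes of these regions were taken from lists and are described by their counts. Where 1 p is given for a gene, it is the Benjamini-Hochberg adjusted p of limma over all probes, whereas calls rest on the unadjusted p. In the lists of transcription factors and Sonic hedgehog (Shh) pathway genes, 47 of 58 genes were measured, of which 3 were called lower and none higher, with a median log2 fold change of -0.06. All lists of regional genes together had 85 of 102 genes measured, 4 of them called lower (*Lhx1*, *Arnt2*, *Sox14* and *Cartpt*) and none higher. This split depended on the fit, since with 8 independent arrays 6 of 9 calls were lower, and in slide row 1 alone 1 of 4. Among all named genes 0.792% were called lower and 4.31% in either direction.

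In the Shh pathway, whose signal induces *Foxa2* and *Nkx6-1* in the ventral neural tube, 11 of 15 genes were measured and none was called in either direction. The median was -0.05. The receptor *Ptch1* had a log2 fold change of -0.16 (adjusted p = 0.686), with -0.60 on array 5 and -0.57 on array 8. *Gli1*, a transcription factor and target of the pathway, had -0.09 (adjusted p = 0.730). *Nkx6-2*, the paralogue of *Nkx6-1*, had -0.13 (adjusted p = 0.486).

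Mammillary, supramammillary and subthalamic factors had 11 of 13 genes measured, and all 11 log2 fold changes were below 0 with a median of -0.09. Only *Lhx1*, which encodes a LIM homeodomain factor, was called lower, at -0.23 (SE 0.06, unadjusted p = 0.00634, adjusted p = 0.287 in limma). Its ratio was below 0 on all 8 arrays and ran from -0.40 on array 8 to -0.06 on array 4. *Lmx1a*, a factor of midbrain dopamine and posterior hypothalamic neurons, had -0.76 and -0.54 on arrays 1 and 2, -0.47 and -0.91 on arrays 5 and 8, and 0.36 and 0.26 on arrays 3 and 4, with a log2 fold change of -0.33 (adjusted p = 0.509). *Ebf3* had -0.22 (adjusted p = 0.493). Of this list 3 genes (*Lmx1a*, *Nr4a2* and *Ebf3*) were below -0.5 on both arrays 1 and 2, where *Foxa2* and *Nkx6-1* were lowest, and 6 were below -0.2 on both arrays 5 and 8.

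Among tuberal and progenitor factors 16 of 17 were measured, with a median of -0.03. *Sox14* alone was called lower, at -0.16 (SE 0.05, unadjusted p = 0.00948, adjusted p = 0.305 in limma), but each of its channels was well above background on 3 arrays only. *Tbx3*, a factor of arcuate neurons, had -0.14 (adjusted p = 0.329) and was below 0 on all 8 arrays. *Vax1* had 0.12 (adjusted p = 0.518). *Fezf1* had -1.02 on array 5 and -1.22 on array 8, but lay between -0.18 and 0.12 on the other arrays.

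Paraventricular and GABA lineage factors had 9 of 13 genes measured and a median of 0.04. *Arnt2*, the dimerisation partner of *Sim1*, was called lower at -0.20 (SE 0.05, unadjusted p = 0.00716, adjusted p = 0.292 in limma), though its ratio was above 0 on arrays 3 and 6. *Lhx8* had 0.84 (adjusted p = 0.326) and *Lhx6* had 0.30 (adjusted p = 0.388), neither past the threshold. Of the peptide and transmitter genes 17 of 18 were measured with a median of -0.03. *Cartpt*, which encodes the appetite-related peptide CART, was called lower at -0.42 (SE 0.09, unadjusted p = 0.00198, adjusted p = 0.254 in limma). *Avp* had 0.65 (adjusted p = 0.339) and *Ghrh* had -0.34 (adjusted p = 0.418).

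The arrays on which *Foxa2* was lowest were compared with other gene lists, since a block of bulk tissue cannot tell fewer cells of a type from less RNA per cell. Of the midbrain dopamine neuron genes 7 of 8 were measured and none was called, although all 7 log2 fold changes were below 0 (median -0.42). Their median ratio was -1.01 and -1.04 on arrays 1 and 2, -0.73 and -0.64 on arrays 6 and 7, and -0.06 and 0.00011 on arrays 5 and 8. On arrays 3 and 4 it was above 0, at 0.17 and 0.14. *Th*, which encodes the rate-limiting enzyme of dopamine synthesis, had -1.39 and -1.46 on arrays 1 and 2 and a log2 fold change of -0.49 (adjusted p = 0.558). *Ddc* had -0.42 (adjusted p = 0.442) and *Aldh1a1* -0.40 (adjusted p = 0.426). *Aldh1a1* encodes Raldh1, which the paper's model places in tanycytes as an enzyme of RA synthesis, so it does not stand for dopamine neurons alone. On both arrays 1 and 2, 5 of the 7 were below -0.5. The defining factors *Pitx3* (-0.17 and -0.18) and *En2* (0.05 and -0.13) were not. *Pitx3* was well above background in vehicle on 5 arrays and *En2* on none. Without arrays 1, 2, 6 and 7, left out after the data had been seen, the mean of *Foxa2* was -0.19 and that of *Nkx6-1* was -0.27, a sign that the choice of these genes fixes. *Foxa2* was lowest on the arrays left out, so its mean had to move towards 0, and nothing is read from the smaller size. Whether the midbrain dopamine neuron genes stand for midbrain or for hypothalamic cells in this block was not tested. The part of the tissue taken in the *Foxa2* and *Nkx6-1* ratios was not tested either.

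**Figure D3:**
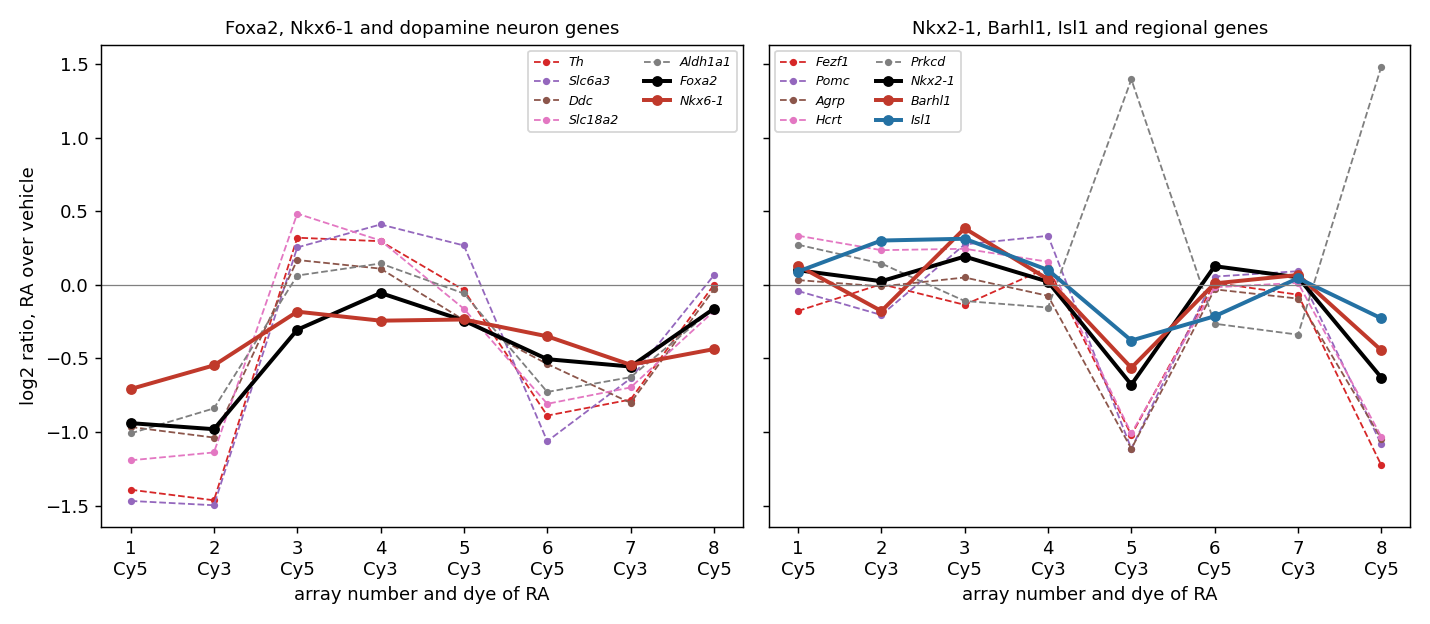
Log2 ratio of RA over vehicle on each array, with the dye of RA under the array number. The left panel sets *Foxa2* and *Nkx6-1* (thick lines) beside 5 of the 7 measured midbrain dopamine neuron genes, without *Pitx3* and *En2*. In the right panel *Nkx2-1*, *Barhl1* and *Isl1* stand beside regional genes, of which *Pomc*, *Agrp* and *Hcrt* were picked after their values had been seen. The lines of the left panel are lowest on arrays 1 and 2, and the dopamine neuron genes lie above 0 on arrays 3 and 4. *Nkx6-1* is lower on array 8 (-0.44) than on array 6 (-0.35). Arrays 5 and 8 stand apart in most lines of the right panel, but *Isl1* has -0.21 on array 6 and -0.23 on array 8.

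A ratio below -0.2 on both arrays 5 and 8 was found for 3 of the 6 comparison genes (*Nkx2-1*, *Barhl1* and *Isl1*) and for 604 of 15156 named genes (3.99%). That limit was chosen after the values had been seen, so the share is a description. Of the peptide and transmitter genes, 11 of 17 met it. The arcuate peptides *Pomc* and *Agrp* both had -1.11 on array 5, and -1.08 and -1.04 on array 8. The lateral hypothalamic peptides *Hcrt* and *Pmch* had -1.01 and -1.30 on array 5 and -1.03 and -1.16 on array 8. *Crh* and *Tac3* of the same list went the other way, with 0.84 and 0.20 on array 5 and 0.93 and 0.09 on array 8. The 3 thalamic genes measured of 5 had their highest ratios there, with a median of 0.86 on array 5 and 0.89 on array 8, and *Prkcd* reached 1.39 and 1.48. No thalamic gene was called, as *Prkcd* had a log2 fold change of 0.30 (adjusted p = 0.758), *Lef1* 0.15 (adjusted p = 0.818) and *Gbx2* -0.0097 (adjusted p = 0.994). The part of the tissue taken in the *Nkx2-1*, *Barhl1* and *Isl1* ratios was not tested.

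Other neighbouring tissues gave no calls. For the telencephalon 4 of 6 genes were measured, with *Neurod6* at -0.10 (adjusted p = 0.568). For the pituitary 7 of 7 were measured, with *Tshb* at -0.39 (adjusted p = 0.630), *Cga* at -0.35 (adjusted p = 0.774) and *Pitx1* at -0.06 (adjusted p = 0.761). On arrays 5 and 8, *Cga* had -1.67 and -1.80 and *Tshb* -1.15 and -1.52. Of the 7 pituitary genes, 3 were below -0.2 on both of these arrays. Choroid plexus genes had a median of -1.63 and -1.60 on arrays 6 and 7 against 0.08 to 0.49 on the other arrays, so arrays 6 and 7 stood apart in these genes too. All 5 reactive astrocyte genes were called higher with a median of 1.40, and their medians were 0.55 to 0.79 on arrays 1 to 4 and 1.69 to 2.67 on arrays 5 to 8. The neuron markers, 7 of 8 measured, had a median of -0.12, with all 7 below 0 and none called. Oligodendrocyte markers had a median of -0.22, with none of 4 called. Of 5 microglia markers *Tmem119* was called lower and *Aif1* higher, and no gene in the lists of ependyma, tanycytes or endothelium was called. *Vim*, counted above with the reactive astrocyte genes, encodes vimentin, which the paper used to stain ependymal cells and tanycytes. It was called higher at 0.62 (unadjusted p = 0.00652, adjusted p = 0.288 in limma), with only 0.16 and 0.23 on arrays 5 and 8.

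The genes whose ratios over the 8 arrays were nearest to those of *Foxa2*, among 9462 genes well above background in both channels, were *Nefm*, *Scn4b* and *Aldh1a1*, with root mean square differences of 0.159, 0.164 and 0.190 on the log2 scale. For *Nkx6-1* they were *Vamp1*, *Nefm* and *Ctxn3*, with 0.148, 0.169 and 0.169 among 9461 genes. *Nefm* encodes a neurofilament subunit, *Scn4b* a sodium channel subunit and *Vamp1* a synaptic vesicle protein. *Nefm* was thus near both chosen genes, with -0.82 on array 1 and -0.67 on array 2. Both chosen genes were lowest on these arrays, so low values of a near gene there come from the search itself.

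The size of the *Foxa2* ratio depended on the background correction, as the probe is dim. With plain subtraction the mean was -1.18 and with Agilent's own log ratio -1.27, compared with -0.43 without correction and -0.42 in the deposited normalised values. *Nkx6-1* had -0.72, -0.76, -0.38 and -0.38 in the same order. Each of these ways left both genes below 0 on 8 of 8 arrays, which is again a property they were chosen for. When arrays 1 and 2 were left out, *Foxa2* had a mean of -0.30 and *Nkx6-1* of -0.33. Both genes were lowest on these arrays, so these means had to move towards 0.

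**Figure D4:**
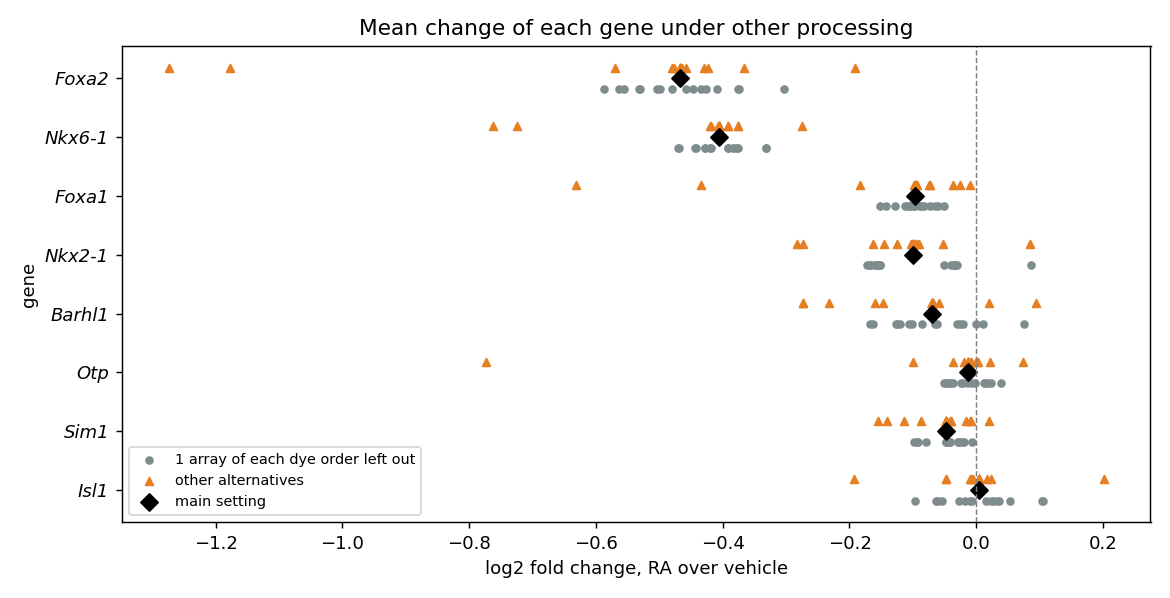
Log2 fold change of each measured gene (horizontal axis) under the main setting (diamond), with 1 array of each dye order left out (circles) and under the other alternatives (triangles). *Foxa2* and *Nkx6-1* were chosen for ratios below 0 on every array, which fixes their side when arrays are left out; *Foxa1* also stays below 0, and *Nkx2-1*, *Barhl1*, *Otp*, *Sim1* and *Isl1* have alternatives on both sides of 0.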

How the data were processed

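The authors deposited the scanner output of 8 two-colour arrays (Feature Extraction 10.7.3.1), with linear Cy3 and Cy5 intensity per spot and Agilent's log10 ratio, and a table of normalised log2 ratios. Their notes name limma. Here, R 4.3.3 and limma 3.58.1 were used. Median intensities were corrected by normexp (offset 50), controls and outlier spots (0.913% to 2.42% per array) were dropped, loess was applied within arrays, and the spots of a probe were averaged. Between 57.4% and 74.6% of probes were well above background per channel. Ratios were turned to RA over vehicle.

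Through transcript accessions matched to RefSeq (GRCr8), 18006 of 30367 probes (59.3%) were named, and the brightest probe stands for a gene. As the sources do not say which arrays share RNA, limma was fitted to the means of 4 array pairs, 1 array of each dye order, in all 24 pairings, and the largest p was kept. The p-values measure the spread between the means of 4 array pairs, in the pairing with the largest p for each probe. Adjusted p-values rest on these largest p-values. Single pairings called 1081 to 3142 probes, against 988 by the largest p. The precision is limited by the 4 rats a group. The test was checked on simulated arrays. *Nr4a2*, *Pitx3*, *En2*, *Pomc*, *Agrp*, *Hcrt*, *Pmch*, *Crh* and *Tac3* were named after their values were seen. Besides these and the genes followed, the text names from each list up to 3 genes with the lowest p among those well above background on all arrays, any called gene, and the 3 genes nearest to *Foxa2* and *Nkx6-1*. A gene that this rule names is not reported here. The genes and lists were chosen with earlier results of these data known. Alternatives were other background corrections, scalings, filters, pairings, dye orders, slide rows and arrays left out.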

Additional observations from a re-analysis of the deposited data

Results flagged for a closer look

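In *Nkx2-1*, 1 array of each dye order stood apart from the other 3. With RA in Cy5 the log2 ratio was -0.63 on array 8, against 0.10 to 0.19 on arrays 1, 3 and 6. With RA in Cy3 it was -0.68 on array 5, against 0.02 to 0.05 on arrays 2, 4 and 7. The 8 measured genes gave 16 groups of 4 arrays, of which these 2 passed Dixon's critical value for 4 samples, and chance passes about 1 in 20 groups. Arrays 5 and 8 were most alike in their deviations over all probes (correlation 0.526), so they may carry the same RNA, and the 2 values may then not be independent. Arrays 5 and 8 were also those on which *Barhl1* (-0.56 and -0.44) and *Fezf1* (-1.02 and -1.22) were lowest. *Barhl1* did not pass the critical value in either dye order.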

How the results depend on the processing

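None of the 6 comparison genes was called at an unadjusted p under 0.01 in limma under any alternative, the lowest p being 0.0217 for *Foxa1* with Agilent's log ratio. *Foxa1* stayed below 0 in all of them, as did *Foxa2* and *Nkx6-1*, for which leaving out arrays cannot turn the sign, since they were chosen for it. The number of probes called (988) was 244 with plain subtraction, 372 with Agilent's log ratio, 2339 with neighbouring arrays as a random block, 2481 with 8 independent arrays, 3142 in the pairing with most calls, 2161 and 2317 with RA in Cy5 or Cy3 only, 3111 with slide row and dye terms, and 497 without arrays 1, 2, 6 and 7, an alternative chosen after seeing the data. The 4 called list genes, all lower, became 0 with plain subtraction, Agilent's log ratio or without arrays 1, 2, 6 and 7, 8 (5 lower) with the random block, 9 (6 lower) with independent arrays and again with row and dye terms, 11 (8 lower) in the pairing with most calls, 3 with RA in Cy5 (2 lower) or Cy3 (3 lower) only, 4 (1 lower) in slide row 1 and 7 (3 lower) in slide row 2. With 1 array of each dye order left out, the probes ran from 455 (without arrays 5 and 8) to 1111 and the list genes from 0 (without arrays 1 and 2) to 14 (10 lower, without arrays 3 and 4).

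The sign turned for *Otp* without background correction (0.00028), with Agilent's log ratio (0.022), in the deposited values (0.0024) and with RA in Cy5 only (0.073). For *Isl1* it turned in the same settings (-0.0087, -0.048, -0.0085 and -0.0094), with plain subtraction (-0.0055), in slide row 2 (-0.19) and without arrays 1, 2, 6 and 7 (-0.048). It turned for *Barhl1* with RA in Cy5 only (0.020) and in slide row 1 (0.094), and in slide row 1 for *Nkx2-1* (0.084) and *Sim1* (0.020). With arrays left out the range was -0.17 to 0.086 for *Nkx2-1*, -0.17 to 0.075 for *Barhl1*, -0.051 to 0.039 for *Otp* and -0.10 to 0.11 for *Isl1*. The cause was not tested.

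Plain subtraction left *Otp* on 7 arrays, and only bright probes left it out. *Foxa2*, *Foxa1*, *Barhl1* and *Otp* are limited by background. The size of *Nkx6-1*, although its probe was well above background on all arrays, depended on the background correction too. As no source gives the pairs, every pairing was fitted. The paired fit of the arrays most alike (1 with 2, 3 with 4, 6 with 7, 8 with 5) called 1081 probes, and 4 list genes, all lower.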
